A study of Equus caballus with 20 samples.

Results

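The horse microRNAs (miRNAs) eca-miR-192, eca-miR-215, eca-miR-194 and eca-miR-122 were followed in extracellular vesicles of the follicular fluid of mares. They are 4 of the 686 miRNA names in the table, 325 of which had a value above 0, and were taken by name. The choice was made with earlier results of these data known, in which miR-192 and miR-215 were higher after follicle selection than before it and miR-194 and miR-122 did not pass a test. Levels by stage are therefore given as a description. The 4 are part of the fit over all miRNAs, but nothing is read from their calls in it. All 4 passed the filter on low values, which asked for 4 or more libraries with 10 or more scaled reads and which 264 miRNAs passed.

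The mares, 19 in the study's design and 8 to 14 years old, had all follicles of 6 mm or more ablated on day 10 or 11 of the cycle, so that a new follicular wave began. Fluid was then aspirated from growing follicles without any further treatment named in the labels, and small RNA of the pelleted vesicles was sequenced in 20 libraries, 4 per stage. Predeviation follicles measured 18 to 20 mm, deviation follicles 22 to 25 mm, postdeviation follicles 26 to 29 mm and preovulatory follicles 30 to 35 mm, while impending ovulation was defined by signs that the follicle was about to ovulate. Deviation is the time at which the future dominant follicle outgrows the rest. Which mare gave which library is not in the labels, and 20 libraries from 19 mares mean that some share a mare. The spread between libraries is thus not known to be that between animals, and the fit used here treats the libraries as independent. There is no other tissue, plasma sample or cell sample in the set, and the vesicles hold miRNAs from every cell that releases them into the fluid.

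A miRNA is a short RNA that lowers the output of messenger RNAs that match its seed, the bases 2 to 8 of the molecule. In human and mouse, miR-192 and miR-215 have the same seed and nearly the same sequence, and each is transcribed together with a copy of miR-194, which has a different seed. All 3 are abundant in liver, gut and kidney epithelium, and they are induced by p53. MiR-122 comes from a gene of its own, is the most abundant miRNA of the hepatocyte, acts on cholesterol metabolism there, and is measured in plasma as a marker of liver injury. Reads of the copies of miR-194 fall into 1 row of the table and cannot be told apart, and the sources used here do not say how reads that match both miR-192 and miR-215 were assigned.

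Values are scaled reads, which are the reads of a miRNA times 1 factor per library set by the authors. Whole reads could be recovered, between 27131 and 110130 per library. The shallowest libraries were preovulatory 3 (27131 reads) and impending ovulation 2 (29862 reads). Predeviation 4 stood apart, with a sum of 1778185 scaled reads against 774632 to 1174121 in the other 19 libraries, so values are also given as a percentage of a library's reads, which does not depend on that factor. In bulk vesicles, fewer vesicles from a cell type and less of a miRNA per vesicle cannot be told apart.

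MiR-192, whose targets include genes of the cell cycle, was lowest before deviation and highest just after it. At predeviation the 4 libraries held 20579.8, 14041, 32381.5 and 52559 scaled reads. At deviation they held 64423, 53816, 49941 and 62723. At postdeviation they held 94130.3, 99665, 94720.1 and 82147. The postdeviation libraries all lay above every predeviation and deviation library, and 3 of the 4 deviation libraries lay above all of predeviation.

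Preovulatory libraries held 40377, 49488, 48113 and 67517 scaled reads of miR-192, and libraries of impending ovulation 84974, 86126, 74958 and 78863. On scaled reads, all 4 preovulatory libraries lay below all 8 of postdeviation and impending ovulation, the stages on either side. The means were 92666 ± 7439 at postdeviation, 81230.2 ± 5258 at impending ovulation, 57726 ± 6969 at deviation, 51374 ± 11485 at preovulatory and 29890.4 ± 16911 at predeviation (SD, n = 4). Of the neighbours in this order, only impending ovulation and deviation had ranges that did not overlap, a gap of 3.81 pooled SD; the other 3 gaps were between 0.669 and 1.78 SD.

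MiR-215, which shares the seed of miR-192, took the same order at a lower level. Its libraries held 10717, 3926, 14212 and 19189 scaled reads at predeviation and 29963, 24982, 16379 and 22989 at deviation. They held 39589, 35979, 43103 and 34479 at postdeviation, 12999, 22179, 20187 and 20410.6 at preovulatory and 26888, 27929.8, 27957 and 27187 at impending ovulation. Postdeviation lay above the other 16 libraries without overlap. The 4 libraries of impending ovulation were close together, with a coefficient of variation of 1.95%, against 53.4% at predeviation.

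The mean of miR-215 was 38287 ± 3861 at postdeviation, 27490.3 ± 537 at impending ovulation, 23578 ± 5625 at deviation, 18944 ± 4062 at preovulatory and 12011 ± 6413 at predeviation (SD, n = 4). Postdeviation and impending ovulation were 3.92 pooled SD apart, and each of the next 3 steps of the order overlapped, with gaps of 0.945 to 1.29 SD. Predeviation 2 was the lowest library for both miR-192 and miR-215, and predeviation 4 the highest of its stage for both on this scale.

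**Figure D1:**
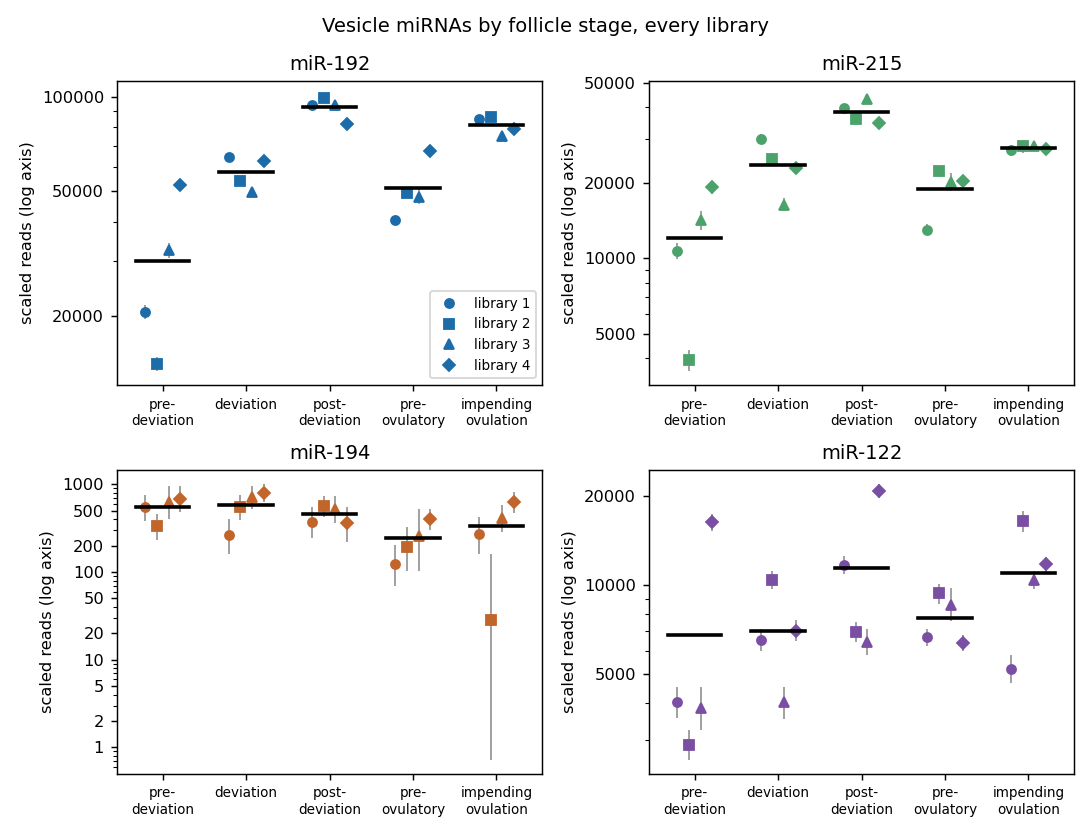
Scaled reads (log axis) of miR-192, miR-215, miR-194 and miR-122 in each of the 20 libraries, by follicle stage. Marker shapes number the 4 libraries of a stage, grey lines are 95% Poisson intervals of the reads, and black lines are stage means; miR-192 and miR-215 are highest at postdeviation (means 92666 and 38287), while the stages overlap for miR-122, and miR-194 has 1 read in impending ovulation 2.

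MiR-194, which human and mouse cells transcribe together with both, did not take that order. It was scarce, with 636 reads over the 20 libraries against 91525 of miR-192 and 34479 of miR-215. Its libraries held 545, 333, 632 and 685 scaled reads at predeviation, 263, 548, 709 and 806 at deviation and 374, 561, 527 and 358 at postdeviation. These 3 stages overlapped throughout.

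Later libraries of miR-194 held 123, 191, 256 and 401 scaled reads at preovulatory and 268, 28.5, 419 and 627 at impending ovulation. The value of 28.5 in impending ovulation 2 is a single read, with a 95% Poisson interval of 0.0253 to 5.57 reads. The order of the means was deviation (582 ± 238), predeviation (549 ± 155), postdeviation (455 ± 104), impending ovulation (336 ± 252; 438 ± 180 without library 2, n = 3) and preovulatory (243 ± 119), with SD and n = 4. All 4 neighbouring pairs overlapped, with gaps of 0.163 to 0.712 pooled SD. Of the 4 preovulatory libraries, 3 were below all of predeviation.

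MiR-122, the hepatocyte miRNA, differed more between libraries of a stage than between stages. Its libraries held 4025, 2888, 3848 and 16333 scaled reads at predeviation, 6547, 10431, 4019.9 and 7027 at deviation. At postdeviation they held 11699.7, 6939.9, 6423 and 20877. Predeviation 4, the library with the largest sum of scaled reads, held more miR-122 than all others of its stage, and the predeviation mean of 6774 ± 6393 (SD, n = 4) was 3587 ± 611 without it (n = 3).

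Preovulatory libraries held 6667, 9392, 8615 and 6390.6 scaled reads of miR-122, and libraries of impending ovulation 5219.5, 16501, 10461.5 and 11799. The means were 11485 ± 6697 at postdeviation, 10995 ± 4641 at impending ovulation, 7766 ± 1468 at preovulatory and 7006 ± 2637 at deviation (SD, n = 4). Every neighbouring pair of the order overlapped, with gaps of 0.0476 to 0.938 pooled SD. As for miR-192 and miR-215, postdeviation came first, impending ovulation second and predeviation last.

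As a share of reads, miR-192 and miR-215 lay further from predeviation, while some later stages lay closer to each other. A share also rises when other abundant miRNAs of the library fall, and their part in these shares was not tested. MiR-192 made up 2.25% ± 0.793 of the reads at predeviation, 5.44% ± 1.07 at deviation, 10.0% ± 1.36 at postdeviation, 5.86% ± 1.92 at preovulatory and 8.99% ± 1.32 at impending ovulation (SD, n = 4). Postdeviation and impending ovulation were 0.792 pooled SD apart, and the preovulatory libraries were no longer all below them, since preovulatory 4 held 8.72%, above postdeviation 4 (8.32%) and impending ovulation 3 and 4 (7.38% and 8.43%). All 16 later libraries were above the highest predeviation library, which held 2.96% (exact 95% interval 2.85 to 3.07%); the lowest later library, deviation 3, held 4.25% (4.11 to 4.40%). These intervals, like all counting intervals here, cover counting error only, since reads carry no molecular identifiers.

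MiR-215 made up 0.919% ± 0.386 of the reads at predeviation and 2.25% ± 0.740, 4.15% ± 0.630, 2.12% ± 0.478 and 3.03% ± 0.242 at the 4 later stages in order, again with all 16 later libraries above predeviation. Its highest predeviation library held 1.25% (1.15 to 1.36%) and its lowest later library 1.40% (1.31 to 1.48%), so that the margin was narrow. Postdeviation and impending ovulation were 2.36 pooled SD apart on this scale and did not overlap. MiR-122 lay above all of predeviation in 1, 2, 1 and 3 of 4 libraries of the later stages in order, and went from a mean of 0.473% ± 0.300 at predeviation to 1.24% ± 0.681 at postdeviation. MiR-194 stayed between 0.00335% and 0.0716% of a library's reads, with a mean of 0.0438% ± 0.0111 at predeviation and 0.0490% ± 0.0100 at postdeviation.

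**Figure D2:**
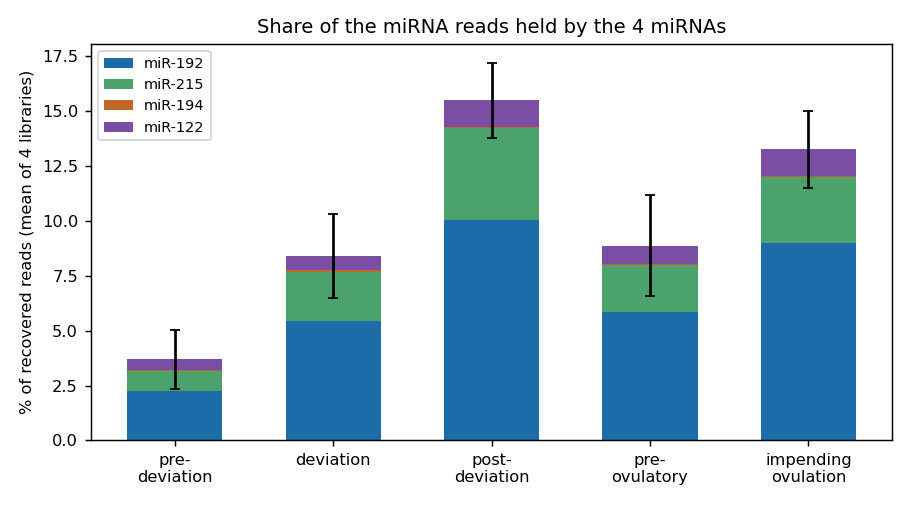
Share of the recovered miRNA reads held by miR-192, miR-215, miR-194 and miR-122 at each follicle stage, as stacked means of 4 libraries; error bars are the SD of the sum of the 4. The sum was 3.68% at predeviation and 15.5% at postdeviation, nearly all of it miR-192 and miR-215, and miR-194 is barely visible.

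Together, miR-192 and miR-215 held 3.17% ± 1.15 of a predeviation library's reads and 14.2% ± 1.89 of a postdeviation library's (SD, n = 4). Ranked by abundance within a library, miR-192 stood between place 6 and 14 at predeviation and in place 2 or 3 at postdeviation and at impending ovulation. MiR-215 stood between place 11 and 31 at predeviation and between 6 and 9 at postdeviation. MiR-122 stood between place 11 and 35 over all stages, and miR-194 between 60 and 158.

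The fit over all 264 miRNAs puts these differences beside those of the rest. Differences are given on the scale of log2(scaled reads + 1) from limma, with all 20 libraries in the fit, as later stage minus predeviation. For miR-192 they were 1.12, 1.80, 0.93 and 1.61 (SE 0.31) at deviation, postdeviation, preovulatory and impending ovulation. For miR-215 they were 1.15, 1.88, 0.84 and 1.41 (SE 0.35). Each SE, like the intervals below, takes the spread between libraries to be equal at all stages. For both miRNAs the spread was widest at predeviation, the reference. The coefficient of variation of scaled reads there was 56.6% for miR-192 and 53.4% for miR-215. At the later stages it was 6.47 to 22.4% for miR-192 and 1.95 to 23.9% for miR-215. The SEs of miR-192 and miR-215 are thus likely too small. In folds, miR-192 was 2.17, 3.49, 1.91 and 3.06 times its predeviation level and miR-215 2.23, 3.69, 1.79 and 2.66 times. The size of both moved with predeviation 2, the lowest library, without which miR-192 differed by 0.81, 1.50, 0.63 and 1.31 and miR-215 by 0.69, 1.42, 0.38 and 0.94.

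MiR-194 differed by 0.02, -0.25, -1.25 and -1.31 (SE 0.70), with 95% intervals that reached from -1.69 to 1.19 at postdeviation and from -2.75 to 0.13 at impending ovulation. Without impending ovulation 2, the difference of miR-194 at that stage was -0.36. MiR-122 differed by 0.35, 0.97, 0.56 and 0.97 (SE 0.48), with 95% intervals from -0.01 to 1.96 at postdeviation and from -0.02 to 1.95 at impending ovulation. Without predeviation 4, the differences of miR-122 were 0.90, 1.52, 1.11 and 1.52.

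**Figure D3:**
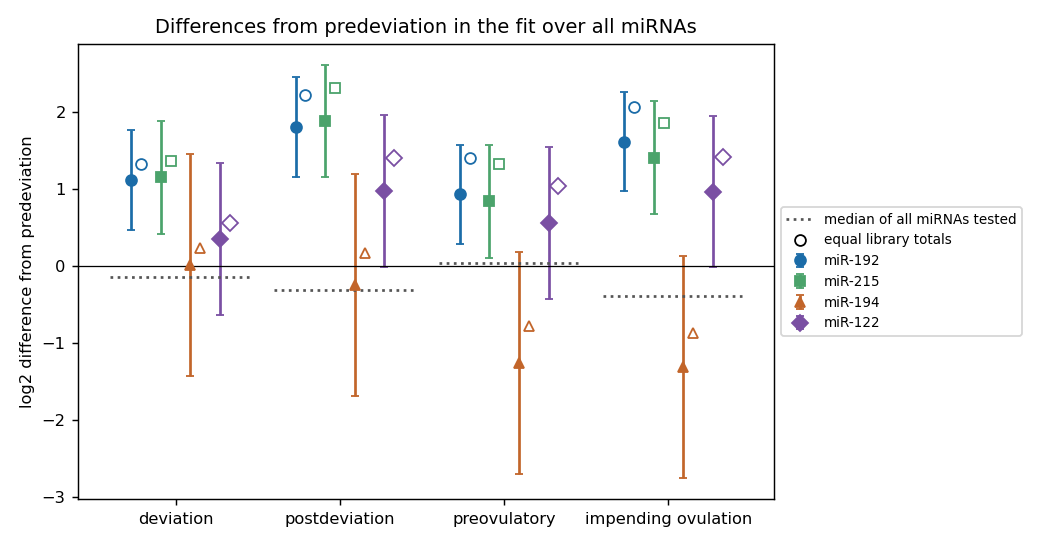
Log2 difference of each later stage from predeviation for miR-192, miR-215, miR-194 and miR-122, from the limma fit over 264 miRNAs. The fit takes the spread between libraries to be equal at all stages. Filled markers with 95% intervals use the deposited scaling, open markers libraries brought to equal totals, and dotted lines the median of all miRNAs tested; at postdeviation the filled values are 1.80, 1.88, -0.25 and 0.97.

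The median of all 264 miRNAs lay at -0.14, -0.31, 0.04 and -0.39 on the deposited scale, and libraries brought to equal totals placed it at 0.02 for postdeviation and 0.48 for the preovulatory stage. On equal totals the differences of miR-192 were 1.33, 2.23, 1.41 and 2.06, those of miR-215 1.37, 2.30, 1.32 and 1.86, and those of miR-122 0.56, 1.40, 1.04 and 1.41. MiR-194 changed its sign at postdeviation, to 0.17, and at preovulatory and impending ovulation was at -0.78 and -0.87. With quantile normalization it was at 0.00 at postdeviation.

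Among all 264 miRNAs, 4.92% passed the F test over the 5 stages (limma adjusted p under 0.05). Against predeviation, 6.06% were called at postdeviation (3.79% higher, 2.27% lower) and 5.68% at impending ovulation (4.55% higher, 1.14% lower). MiR-192 and miR-215, 2 of the 4 members, were among those called in each, and miR-194 and miR-122 in none. In the comparisons with predeviation, miR-192 and miR-215 were higher, while the F test has no direction. Since the choice of the 4 used these contrasts, nothing is read from their count. The count of 2 became 3 when miR-122 was added without predeviation 4 or on equal totals, in both comparisons of a pair of stages. It became 1, miR-192 alone, at impending ovulation without predeviation 2, impending ovulation 1 or impending ovulation 2.

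Ratios within a library do not depend on the library's factor, and show which of the 4 kept step. A ratio between 2 miRNAs also holds how well each is ligated and amplified, so only its change between libraries is described. Among the ratios between members, that of miR-192 to miR-215 varied least. It lay between 1.92 and 3.58 in all 20 libraries, with means of 2.63 ± 0.715, 2.52 ± 0.445, 2.43 ± 0.241, 2.76 ± 0.530 and 2.96 ± 0.213 over the 5 stages in order (SD, n = 4), and the SD of its log2 was 0.25 over the 20 libraries. Counting alone gives an SD of 0.05 for this log2 ratio, and without any single library the SD was between 0.23 and 0.25. How reads that match both miRNAs were assigned is not known, and its part in this ratio was not tested.

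The ratio of miR-192 to miR-194 varied more. It ranged from 37.7 to 76.7 at predeviation and from 70.4 to 245 at deviation. Postdeviation libraries lay at 178 to 252 and preovulatory ones at 168 to 329. At impending ovulation it was 126 to 317 in 3 libraries and 3022 in library 2, where miR-194 had 1 read. All 12 libraries from postdeviation on were above every predeviation library, and of the deviation libraries only the one at 70.4 was not. From summed reads, the ratio was 52.1 at predeviation, 99.9 at deviation, 201 at postdeviation, 209 at preovulatory and 199 at impending ovulation, or 173 without library 2.

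The ratio of miR-215 to miR-194 moved likewise, from 20.4 in summed reads at predeviation to 40.9 at deviation, 81.6 at postdeviation, 71.2 at preovulatory and 68.0 at impending ovulation. The SD of the log2 ratio over the 20 libraries was 1.39 for miR-192 over miR-194 and 1.37 for miR-215 over miR-194, and 0.99 and 1.01 without impending ovulation 2. Counting alone gives an SD of 0.43 for each over the 20 libraries, from the few reads of miR-194. For miR-194 by itself the counting SD was 0.43, and 0.29 without impending ovulation 2.

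Against miR-122, miR-192 lay in between. The ratio of miR-192 to miR-122 ranged from 3.22 to 8.41 before deviation. It ranged from 5.16 to 12.4 in deviation libraries, from 3.93 to 14.7 in postdeviation ones, from 5.27 to 10.6 in preovulatory ones and from 5.22 to 16.3 in those of impending ovulation, so that every later stage overlapped predeviation. The SD of its log2 was 0.66 over the 20 libraries, with 0.07 from counting. That of miR-215 over miR-122 was 0.67. The lowest ratio of miR-192 to miR-122 in the set, 3.22, was in predeviation 4, and the next lowest, 3.93, in postdeviation 4; these are the libraries with the most miR-122 of their stages.

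**Figure D4:**
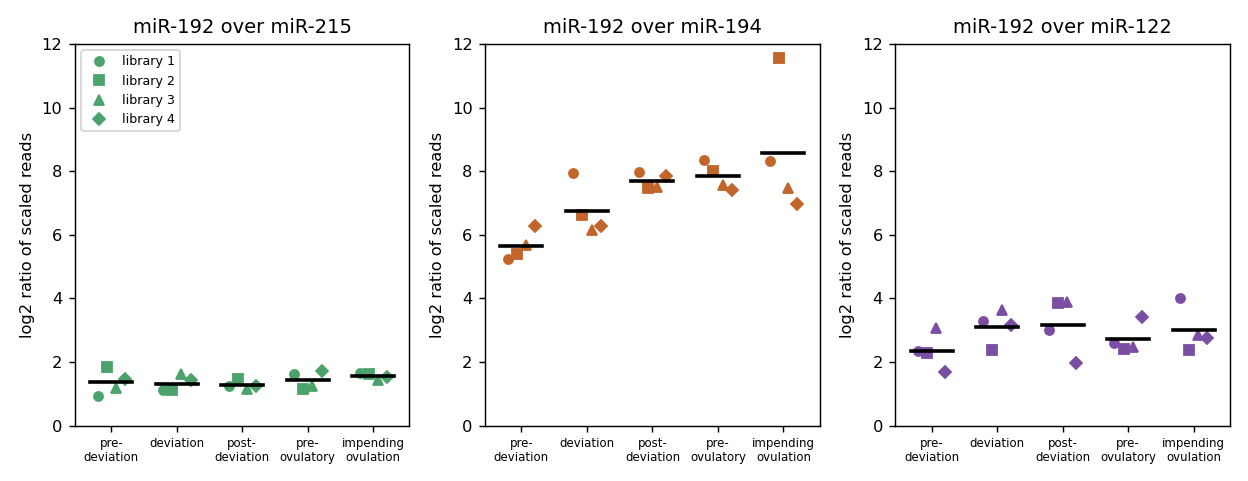
Log2 ratio of miR-192 to miR-215, to miR-194 and to miR-122 in each library, by follicle stage and on the same axis; marker shapes number the libraries of a stage and black lines are stage means. The ratio to miR-215 keeps within 1.92 to 3.58 (before the log), that to miR-194 is lowest at predeviation and has 1 library at 3022, and that to miR-122 overlaps between predeviation and each later stage.

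Within a stage, libraries differed by an SD of 0.41 on the log2 scale for miR-192, 0.50 for miR-215, 0.74 for miR-122 and 1.03 for miR-194, or 0.59 for miR-194 without impending ovulation 2. Counting error made up 0.404%, 0.688% and 0.855% of that variance for miR-192, miR-215 and miR-122, and 17.4% for miR-194 (24.7% without impending ovulation 2). For all 4, most of the spread within a stage was thus between libraries beyond counting error.

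Likeness to each of the 4 was measured over the 20 libraries as the SD of the log2 ratio, among the 112 miRNAs with a mean of at least 100 scaled reads and above 0 in every library. MiR-215 and miR-192 were each other's most like miRNA of 111, with an SD of 0.25 against a median of 1.11 for miR-192 and 1.16 for miR-215. Next for miR-192 came miR-128 (SD 0.40), a miRNA enriched in brain, and miR-22 (0.45), a widely expressed one, and for miR-215 miR-22 (0.48) and miR-128 (0.52). MiR-122 stood in place 10 for miR-192 and 8 for miR-215, and miR-194 in place 78 and 74. The SDs to miR-194 were 1.39 and 1.37, but 0.99 and 1.01 without impending ovulation 2, where miR-194 had 1 read. Places without that library were not taken, so those of miR-194 rest in part on it.

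The miRNAs most like miR-122 were miR-423-5p (SD 0.61), miR-192 (0.66) and the imprinted miR-127 (0.67). Those most like miR-194 were miR-221 (0.90), miR-378 (0.97) and miR-27b (0.97), none of them of its own cluster, and for a scarce miRNA small counts widen every such ratio. A miRNA that varies little can also rank high on this measure without sharing a pattern. The log2 SD of miR-423-5p was 0.35, of miR-192 0.74 and of miR-127 0.51, against 0.76 for miR-122. That of miR-221 was 0.75, of miR-378 0.36 and of miR-27b 0.34, against 1.11 for miR-194. With impending ovulation 2 included, miR-192 stood in place 66 for miR-194 and miR-215 in place 63. With stage means taken out, the SD of miR-192 to miR-215 stayed at 0.25 and each was again first for the other, but miR-92a was nearly as close to miR-192 (0.257 against 0.253). On that measure only 1 of the 3 named stayed among the closest 3 for miR-192, miR-215 and miR-194 and 0 of 3 for miR-122. The points share libraries and stages, so this likeness is a description.

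Other miRNAs of the tissues that miR-192, miR-215 and miR-122 are known from were read beside the shares called among all 264, 3.79% higher and 2.27% lower at postdeviation and 4.55% and 1.14% at impending ovulation. Lists this short would hold under 1 call at those shares, so a count of 0 says little. Of 7 rows for other liver miRNAs 4 were tested, and 0 passed in either direction at postdeviation or impending ovulation (limma), with a median log2 difference of -0.58 and -1.07 against -0.31 and -0.39 over all miRNAs. The most abundant was miR-148a, which is also high in many secretory tissues, whose mean was 409806 ± 279306 scaled reads in predeviation libraries and 206178 ± 58017 in postdeviation ones (SD, n = 4; log2 difference -0.83 ± 0.33 SE). Without predeviation 4 the predeviation mean was 270172 ± 5592 (n = 3) and the difference -0.43. MiR-365 was at 2.76 ± 1.81 and miR-193b at -0.34 ± 1.75, each from 27 reads in all, and miR-101 at -1.06 ± 0.48. The liver miRNAs miR-802 and miR-885-5p had 5 and 4 reads in the whole set.

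Of 8 tested epithelial and kidney miRNAs, 0 were called higher and 1 lower at postdeviation (2.27% of all miRNAs were called lower), with a list median of -0.78 at postdeviation and -0.35 at impending ovulation. The one called was miR-200c, of the family that holds epithelial identity (log2 -2.37 ± 0.60 SE, limma adjusted p = 0.0119), and 0 were called at impending ovulation. MiR-200b was at -1.60 ± 0.49, miR-200a at -0.89 ± 0.57 and miR-204b, of the kidney, at 1.24 ± 0.76 at postdeviation. At impending ovulation miR-200c was at -0.35 ± 0.60, miR-200b at -0.36 ± 0.49, miR-200a at -0.92 ± 0.57 and miR-204b at 2.40 ± 0.76. MiR-204b (limma adjusted p = 0.0200) and miR-200c (0.0365) passed the F test over the 5 stages, which 4.92% of all miRNAs passed. Of 7 tested rows of other p53-induced miRNAs, 0 were called higher and 3 lower at postdeviation, against 2.27% of all miRNAs called lower, all 3 of the miR-34 family, which restrains the cell cycle (list medians -3.38 and -2.29). MiR-34c went from 476 to 8303 scaled reads in predeviation libraries to 0 to 17.9 in postdeviation ones (limma adjusted p = 0.00168). MiR-34b-3p had 38.1 to 333 scaled reads in predeviation libraries and 0 in all 4 postdeviation ones (limma adjusted p = 0.0135), and miR-34b-5p passed as well (0.0119). At impending ovulation 0 passed in either direction. MiR-107a, the most abundant of these, was at -0.79 ± 0.68 and miR-145, which is also a smooth muscle miRNA, at -1.26 ± 0.78 at postdeviation. The fall of the miR-34 rows was known when the list was made, and is not independent evidence of its direction. All the lists were made with earlier results of these data known. The calls of miR-200c and miR-204b are therefore not independent evidence either.

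Markers of blood and other cells were read beside these levels. Of the 3 tested red blood cell rows (miR-486-5p, miR-451, miR-486-3p), 8 of leukocytes, 2 of endothelium, 5 of smooth muscle and stroma and 4 of the follicle's granulosa cells, 0 were called in either direction at postdeviation or impending ovulation (limma). Of all 264 miRNAs, 6.06% and 5.68% were called there, so a count of 0 in lists this short says little. Median log2 differences at those stages were -0.70 and -0.82 for red blood cells and -0.47 and -0.30 for leukocytes. They were -1.37 and -2.85 for endothelium, -0.78 and -1.27 for smooth muscle and stroma and -1.21 and -1.02 for granulosa cells. Over all miRNAs they were -0.31 and -0.39. Summed, the red blood cell rows held 0.997 to 2.48% of a library's reads before deviation, 1.84 to 2.97% in deviation libraries, 1.12 to 2.46% in postdeviation, 0.957 to 7.64% in preovulatory and 1.53 to 2.08% in impending ovulation libraries. MiR-486-5p made up 88.4 to 96.4% of that sum in 19 libraries and 53.5% in predeviation 2, where miR-451 made up 43.9%, and the red cell miR-144 had 3 reads in all, 0 of them from postdeviation on. The leukocyte list made up 0.320 to 0.788% at predeviation and 0.459 to 0.611% at postdeviation. The ranges of both lists overlapped between predeviation and postdeviation, and their part in the levels of miR-192, miR-215 and miR-122 was not tested.

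The granulosa cell list, nearly all of it miR-21, made up 2.64 to 28.3% of the reads at predeviation and 2.91 to 15.0% at postdeviation, also with overlap. MiR-21 had 153932 reads over all libraries, and the other rows of this list 3 to 91 each. The share is thus that of miR-21, and whether it follows the amount of granulosa cells was not tested. Predeviation 4, with the most scaled reads of miR-192, miR-215 and miR-122 of its stage (by share, predeviation 3 held more miR-215, 1.25% against 1.08%), also held 828709 scaled reads of miR-148a, against 264904 to 276040 in the other 3 libraries of its stage, and 46810.4 of miR-21 against 194377 to 321671. The part of that library's makeup in its values was not tested beyond leaving it out.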

How the data were processed

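The deposited table, named CPM by the authors, holds a signal of scaled reads per miRNA. Of its values, 100% were whole multiples (within 1e-06) of their column's lowest non-zero value, so whole reads were recovered by dividing by it (1 read was worth 7.04 to 36.5). In postdeviation 2 only 93 low values showed that step. The submitters' processing notes name bcl2fastq, Bowtie2 2.2.2, DESeq2 and EquCab3.0, with no role or order; the miRNA annotation, counting settings and the factor per library are not given in the sources used here. Per the labels' protocols, vesicles were pelleted from 2 ml of fluid at 120000 g for 70 min and libraries made with the TruSeq Small RNA kit.

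The members and lists were chosen with earlier results of these data known. Values were taken as log2(value + 1) and fitted in limma 3.58.1 (R 4.3.3), trend option on, over 264 miRNAs and all 20 libraries with a mean per stage. Benjamini-Hochberg adjustment was applied to two-sided p-values. The miRNAs named are the 4 members, the 3 most like each (all 20 ratios required) and at most 4 of a list by abundance, besides those called in it, and miR-34a, miR-92a, miR-144, miR-193b, miR-365, miR-802 and miR-885-5p, named with their values in view. Alternatives were pseudocounts of 0.5 and 10, other filters and scalings, no intensity trend, edgeR 4.0.16 and DESeq2 1.42.0 on recovered reads, the replicate block, only the 2 stages compared, each library left out and, chosen after seeing the data, both libraries under 40000 reads left out. Likeness was also taken around stage means and over miRNAs with a mean of at least 1000. The scripts were tested on simulated data. No library was counted as a copy of another: chi-square over degrees of freedom was at least 15.6 for every pair in a stage. Mature sequences and coordinates were not used here.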

Additional observations from a re-analysis of the deposited data

Results flagged for a closer look

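In 50 groups of 4 libraries (each stage, for the 4 levels and the 6 log2 ratios between members), 2 held a library far from the others by Dixon's criterion, where chance flags about 1 in 20. MiR-122 in predeviation 4, at 16333 scaled reads, stood apart from 2888 to 4025 in the other 3 libraries (gap 0.915 of the range). The log2 ratio of miR-194 to miR-122 in impending ovulation 2 was -9.18, against -4.64 to -4.24 in the other 3 (gap 0.918 of the range); it rests on 1 read of miR-194.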

How the results depend on the processing

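The count of miRNAs past the threshold in the F test was 13, but 2 without the intensity trend, 27 with edgeR and 43 with DESeq2, and 7 to 20 without a library. At postdeviation it was 16, and 7 to 21 without a library. At impending ovulation it was 15, but 26 with DESeq2, 7 without both shallow libraries, 4 with only the 2 stages in the fit, and 5 to 21 without a library; the cause of these moves was not tested. The split at postdeviation went from 10 higher and 6 lower to 16 and 5 on equal totals, and at impending ovulation from 12 and 3 to 20 and 1 on equal totals and 11 and 1 with quantile normalization. Nothing is read from the calls of the 4, which were chosen on these contrasts; in the F test, miR-215 was lost with quantile normalization and both without the intensity trend; at impending ovulation, miR-215 was lost without the intensity trend, with quantile normalization and without both shallow libraries, and both with only those 2 stages fitted.

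The log2 differences of the 4 moved by less than the SD between replicates in 197 of 200 values under other settings and in all 320 without a library. The other 3 were those of miR-192 on equal totals, 2.23 at postdeviation, 1.41 at preovulatory and 2.06 at impending ovulation. That SD was taken over all 20 libraries, and for miR-194 it was 0.59 without impending ovulation 2. Leaving that library out moved the difference of miR-194 at impending ovulation from -1.31 to -0.36, which is more than 0.59. Signs were kept except for miR-194 near 0: at postdeviation in 2 settings, equal totals and quantile normalization, and at deviation without 3 single libraries. Replicate numbers did not pair the libraries (correlations of deviations -0.28 to 0.30 over 40 same-numbered pairs, 4 of 20 libraries closest to their own number). With the replicate block, 9 passed the F test, 16 at postdeviation and 14 at impending ovulation. MiR-194 had 1 to 68 reads per library, and counting error made up 17.4% of its variance within stages.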
